A study of Mus musculus with 10 samples.

Results

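This account describes the mouse zinc-finger genes that lie next to other zinc-finger genes on the chromosome, in the hippocampus of Dp1Tyb and wild-type (WT) mice. Members were the protein-coding genes whose symbol begins with Zfp and a number, with a mean level over the 10 libraries of at least 1 CPM (reads per gene scaled to a common library size) and a start within 200 kb of the start of another such gene on the same chromosome. Of 394 protein-coding Zfp genes in the count table of 43629 genes, 355 reached that level and 212 of these were members. The 212 members formed 48 clusters on 15 chromosomes, where a cluster is a chain of members each within 200 kb of the next. The other 143 expressed Zfp genes stood alone. At the edges of the rule, Zfp820 had a mean of 1.006 CPM and was kept while Zfp474 had 0.9543 CPM and was not, and the start of Zfp442 lay 189.1 kb from its nearest neighbour while that of Zfp513, which was not a member, lay 253.4 kb away.

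RNA was sequenced from the whole hippocampus of mice, 5 WT and 5 Dp1Tyb, with 1 library per mouse, on a background that the labels give as C57BL/6J.129P2 and at an age that they give as 18 weeks. The methods of the study describe male littermates that were slightly older. Dp1Tyb mice carry an extra copy of the stretch of mouse chromosome 16 that corresponds to human chromosome 21, and are a model of Down syndrome; the WT mice carry no such copy. The labels give no library batch. Libraries held between 18227684 and 43692270 counts, and all 212 members passed the filter on low counts. No member lies in the duplicated stretch, where 68 of 114 tested genes were called, with a median log2 fold change of 0.53. The summed level of 10 hippocampal neuron markers was between 1110 and 1310 CPM in WT and between 1120 and 1210 CPM in Dp1Tyb libraries, while the summed level of 10 choroid plexus markers ran from 441 to 5550 CPM in WT and from 40.6 to 3970 CPM in Dp1Tyb libraries, with Dp1Tyb replicates 1 and 4 the lowest and no marker at 0 in all libraries. Summed thalamus markers (112 to 126 CPM), blood markers (321 to 372 CPM) and oligodendrocyte markers (4310 to 5880 CPM) overlapped between the genotypes, and none of the markers tested in the 5 lists was called (1 of the 6 thalamus markers was not tested).

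Most of these genes encode C2H2 zinc-finger proteins, in which each finger is a short loop folded around a zinc ion by a pair of cysteines and a pair of histidines, and a row of fingers reads a stretch of DNA. Many carry a KRAB domain before the fingers, which recruits the co-repressor Trim28 and, through it, the histone methyltransferase Setdb1, so that heterochromatin forms at the bound site. Transposable elements are the best known targets. The family grew by repeated local duplication, so that related genes sit side by side, and their own coding regions can carry the same repressive mark. In the mouse brain most are expressed at low levels.

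The finger array is what makes the members recognisable. To show the family resemblance, 1 finger is printed for members of 3 clusters, with the codons of the 4 zinc-binding cysteines and histidines in capitals. It is the middle one of the fingers that are followed by the linker letters TGEKP. The strand shown is the coding strand of the GENCODE transcript with the longest reading frame. Zfp865 had 2 such fingers among 21 finger patterns, so its printed finger need not lie in the middle of the array. Zfp942, Zfp943 and Zfp758 belong to the chromosome 17 cluster, Zfp976 and Zfp977 to the chromosome 7 cluster with the highest median log2 fold change, and Zfp865 to the chromosome 7 cluster with the lowest.
Zfp942: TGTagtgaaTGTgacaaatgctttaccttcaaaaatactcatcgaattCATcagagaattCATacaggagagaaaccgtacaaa
Zfp943: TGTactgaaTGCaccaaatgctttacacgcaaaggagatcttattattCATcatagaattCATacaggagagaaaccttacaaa
Zfp758: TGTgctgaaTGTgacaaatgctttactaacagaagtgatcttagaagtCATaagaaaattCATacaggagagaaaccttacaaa
Zfp976: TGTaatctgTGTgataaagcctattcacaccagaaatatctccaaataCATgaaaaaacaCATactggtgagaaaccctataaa
Zfp977: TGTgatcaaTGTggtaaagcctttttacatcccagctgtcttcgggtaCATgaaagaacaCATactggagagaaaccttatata
Zfp865: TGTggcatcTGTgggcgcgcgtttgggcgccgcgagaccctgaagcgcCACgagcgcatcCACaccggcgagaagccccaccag

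The 84 bases were 34.5% GC in Zfp942 and in Zfp943, 33.3% in Zfp758 and Zfp976, 39.3% in Zfp977 and 70.2% in Zfp865. Over the whole set the contrast was smaller. A KRAB pattern was found in the reading frames of 155 members, whose longest transcripts had a median GC content of 41.4% (33.2% to 58.6%). It was not found in 57 members, whose median was 52.0% (37.8% to 68.7%). Fingers picked in the same way had a median of 41.7% GC in 149 members with the pattern and 53.6% in 37 without it. The pattern misses divergent KRAB domains, so the 57 are members in which these letters were not found. Between 1 and 30 finger patterns were counted per member, with a median of 12, and 201 of the 212 members had at least 5. A KRAB pattern was found in 73.1% of the members and in 26.6% of the 143 Zfp genes outside clusters, which had a median of 8 finger patterns.

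Mean levels of the members ran from 1.01 CPM for Zfp820 to 121 CPM for Zfp445, with a median of 11.2 CPM. Zfp445, which helps to keep imprinted genes silent, had 119, 128, 120, 118 and 115 CPM in WT replicates 1 to 5 and 123, 118, 122, 130 and 113 CPM in Dp1Tyb replicates 1 to 5. Its levels overlapped almost wholly between the genotypes (log2 fold change 0.014 ± 0.043 SE, adjusted p = 0.909 in edgeR's quasi-likelihood test with Benjamini-Hochberg adjustment over all 17237 tested genes, n = 5 per genotype). Per kilobase of exon Zfp445 stood at 16.3 CPM and Zfp820 at 0.271 CPM. Members with a KRAB pattern had a median level of 7.61 CPM and those without one of 17.8 CPM.

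None of the 212 members was called at an adjusted p under 0.05 in edgeR, where 1.11% of all tested genes were called. At an unadjusted p under 0.05 there were 22 members, or 10.4%, against 14.4% of all tested genes. The log2 fold change, Dp1Tyb against WT, was above 0 in 121 members and below 0 in 91, and 57.1% above 0 compares with 48.7% of all tested genes. The median log2 fold change was 0.023 over the members, -0.0041 over all tested genes and -0.014 over the 143 Zfp genes outside clusters, 58 of which were above 0. Differences were small, with 136 members within 0.1 of 0 on the log2 scale and 4 members more than 0.3 from it. The excess above 0 varied with the libraries used. Without Dp1Tyb replicate 4 the share above 0 was 50.9%, the lowest on leaving out 1 library, and without Dp1Tyb replicate 2 it was 51.4%. The highest was 61.3%, without Dp1Tyb replicate 5. Without both choroid-poor libraries, Dp1Tyb replicates 1 and 4, it was 49.5%, while without Dp1Tyb replicate 1 alone it was 57.1%. The part of choroid plexus content in these differences was not tested further.

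The member with the lowest unadjusted p was Zfp772, at chr7:7202117-7209998 in GRCm38. Its level was 16.1, 15.4, 13.4, 15.2 and 15.7 CPM in WT replicates 1 to 5 and 13.3, 12.5, 11.6, 12.7 and 11.9 CPM in Dp1Tyb replicates 1 to 5. Every Dp1Tyb library lay below every WT library, though the gap between 13.4 and 13.3 CPM was narrow. Zfp772 was the only member whose groups did not overlap, where 3.68% of all tested genes did not. The log2 fold change was -0.29 ± 0.068 SE (unadjusted p = 0.000916, adjusted p = 0.0621, edgeR, n = 5 per genotype), just short of the threshold. It passed at adjusted p = 0.0106 in DESeq2, where 3.02% of tested genes were called, at 0.0402 without WT replicate 3 (0.88% called) and at 0.0365 with the GC and length trend removed (1.53% called). Its cluster of 4 genes, from Zfp954 to Zfp772, had 2 genes above 0, a highest value of 0.078 ± 0.081 SE for Zfp954 and a median of -0.046.

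The cluster of Zfp141, Zfp977, Zfp976 and Zfp975 at chr7:42473386-42692742 had the highest median log2 fold change of the 24 clusters with at least 3 members, 0.26, and all 4 genes were above 0. Each carries a KRAB pattern. Zfp976, with the second lowest unadjusted p, had 3.76, 4.62, 3.8, 2.91 and 3.45 CPM in WT and 4.93, 4.48, 5.6, 4.09 and 5.2 CPM in Dp1Tyb replicates 1 to 5. Its groups overlapped in a few libraries, with WT replicate 2 above Dp1Tyb replicates 2 and 4 (log2 fold change 0.39 ± 0.13 SE, adjusted p = 0.201). Zfp977 had 0.839, 0.666, 0.976, 0.545 and 1.03 CPM in WT and 1.49, 0.77, 1.56, 1.33 and 1.1 CPM in Dp1Tyb replicates 1 to 5, and rested on 16 to 65 counts per library. Dp1Tyb replicate 2 was the one library of its group inside the WT range (0.66 ± 0.24 SE, adjusted p = 0.233), and this was the highest value among the members. Zfp141, the most abundant of the 4, stood at 0.12 ± 0.076 SE and Zfp975 at 0.12 ± 0.18 SE. Promoters of Zfp977 and Zfp976 were 81.6% identical over the 250 bases before the start, whereas that of Zfp141 was 47.4% identical to that of Zfp977.

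The lowest median among clusters of at least 3 members, -0.18, belonged to the 6 genes from Zfp628 to Zfp580 at chr7:4915217-5053723. No KRAB pattern was found in any of them and their median GC content was 61.2%. Of 6 other tested genes that start between these members, 1 was above 0, and their median log2 fold change was -0.15. Zfp579 had 17.1, 14.3, 23.5, 20.1 and 26.1 CPM in WT and 13.3, 13.4, 18.2, 12.8 and 18.8 CPM in Dp1Tyb replicates 1 to 5. The groups overlapped, since WT replicates 1 and 2 fell among the Dp1Tyb libraries (log2 fold change -0.40 ± 0.16 SE, adjusted p = 0.282). It passed only with the replicate number as a block (adjusted p = 0.0366, 1.83% of tested genes called). Zfp865 had 22.2, 27.1, 27.7, 29.7 and 33.9 CPM in WT and 21.2, 22.6, 24, 20.7 and 28.2 CPM in Dp1Tyb replicates 1 to 5. Again WT replicate 1 and Dp1Tyb replicate 5 crossed the other group (-0.27 ± 0.11 SE, adjusted p = 0.281). Zfp580 stood at -0.19 ± 0.13 SE, Zfp784 at -0.16 ± 0.10 SE, Zfp628 at -0.069 ± 0.14 SE and Zfp524 at 0.024 ± 0.098 SE. Without WT replicate 5 Zfp580 stood at -0.065, and with the GC and length trend removed at -0.039. Zfp865 and Zfp784 overlap each other and Ccdc106, Zfp580 overlaps Ccdc106 and Gm15510, and 44% of the 75-base windows of Zfp524 occur in another gene, so their counts are uncertain.

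**Figure D1:**
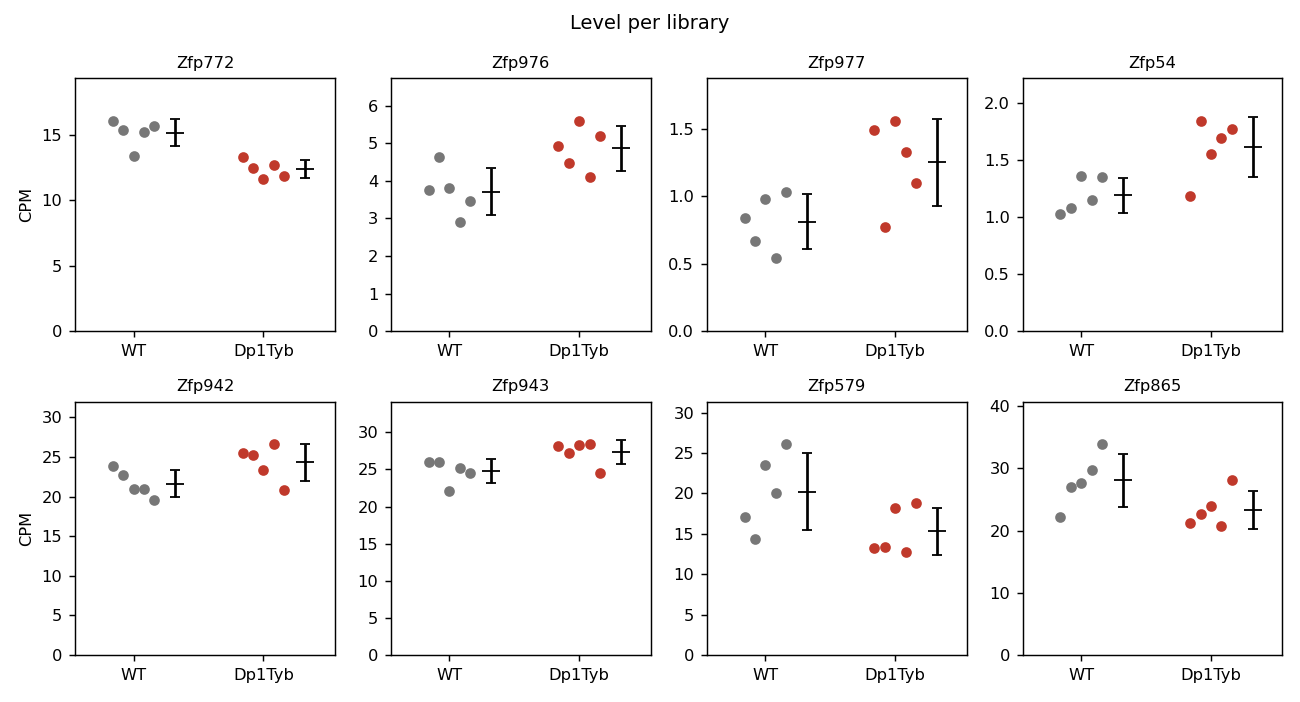
CPM (y axis, from 0) of 8 members in each library, WT in grey and Dp1Tyb in red, in order of replicate number from left to right, with the mean and SD of 5 libraries beside each group. Only Zfp772 separates the genotypes, with all WT libraries at or above 13.4 CPM and all Dp1Tyb libraries at or below 13.3 CPM.

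The chromosome 17 cluster from Zfp677 to Zfp946 (chr17:21383748-22456689, 18 members, each with a KRAB pattern) was the most uniform of the large clusters. The log2 fold change was above 0 in 17 of its 18 genes, with a median of 0.11 and a range from -0.046 for Zfp229 to 0.44 for Zfp54. None was called. At an unadjusted p under 0.05 there were 4 of the 18, where 14.4% of all tested genes were under it. They were Zfp54, Zfp983, Zfp942 and Zfp943, of which Zfp942 and Zfp983 were named after their values were seen. Zfp54 had 1.03, 1.08, 1.36, 1.15 and 1.35 CPM in WT and 1.19, 1.85, 1.56, 1.7 and 1.78 CPM in Dp1Tyb replicates 1 to 5. Dp1Tyb replicate 1 was the one library of its group within the WT range (0.44 ± 0.17 SE, adjusted p = 0.261). Zfp943, the most abundant gene of the cluster, had 26, 26, 22.1, 25.2 and 24.5 CPM in WT and 28.2, 27.2, 28.3, 28.4 and 24.5 CPM in Dp1Tyb replicates 1 to 5. Here Dp1Tyb replicate 5 was the exception (0.14 ± 0.061 SE, adjusted p = 0.312).

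Taken as a mean over its 18 genes, on log2 CPM minus each gene's mean over the 10 libraries, the chromosome 17 cluster stood at -0.0026, -0.084, -0.067, -0.096 and -0.042 in WT replicates 1 to 5 and at 0.033, 0.084, 0.088, 0.15 and -0.061 in Dp1Tyb replicates 1 to 5. Dp1Tyb replicates 1 to 4 thus lay above all WT libraries and replicate 5 within them. The means were -0.058 ± 0.037 (SD, n = 5) and 0.058 ± 0.078 (SD, n = 5). The 3 other tested genes that start between these members had log2 fold changes of 0.42 ± 0.18 SE for Gm10226, 0.32 ± 0.26 SE for Gm10509 and 0.049 ± 0.15 SE for 9330136K24Rik, and none was called. Leaving out 1 library at a time left between 15 and 17 of the 18 members above 0, and with the GC and length trend removed the count was 13 of 18 with a median of 0.05.

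**Figure D2:**
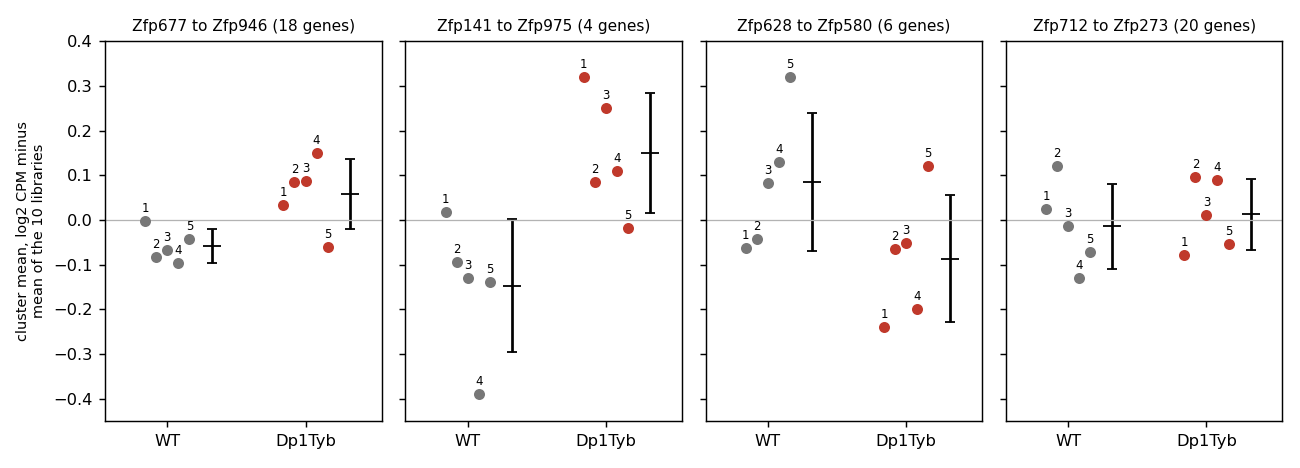
Mean of log2 CPM minus each gene's mean over the 10 libraries (y axis) for 4 clusters, 1 point per library numbered by replicate, with the mean and SD of 5 libraries per genotype. In the chromosome 17 cluster from Zfp677 to Zfp946 only Dp1Tyb replicate 5 (-0.061) falls among the WT libraries, while the 20 genes from Zfp712 to Zfp273 show no separation.

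Within the chromosome 17 cluster, Zfp942 and Zfp943 are transcribed away from each other with 87 bases between their starts, and Zfp944 and Zfp758 with 52 bases between theirs. Each stretch lies between the annotated starts of a pair of members, and whether it acts as a promoter of both genes was not tested. The bases between the starts are shown with CG dinucleotides in capitals. They come from the RefSeq promoter table in GRCm38.p6, on the plus strand and up to the first GENCODE start.
Zfp942 and Zfp943, chr17:21962465-21962551: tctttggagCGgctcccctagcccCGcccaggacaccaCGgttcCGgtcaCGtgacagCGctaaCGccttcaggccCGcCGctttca
Zfp944 and Zfp758, chr17:22361401-22361452: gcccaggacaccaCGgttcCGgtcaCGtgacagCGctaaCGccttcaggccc

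The whole of the shorter stretch, 52 bases, occurs unchanged within the longer one, and the stretches hold 5 and 9 CG dinucleotides. Both contain CACGTG, which reads the same on either strand and occurs in 7.15% of the 32851 promoter windows of the table and in 6.40% of the 203 windows of members. Zfp942 had 23.9, 22.7, 21, 21 and 19.6 CPM in WT and 25.5, 25.3, 23.3, 26.6 and 20.8 CPM in Dp1Tyb replicates 1 to 5. Dp1Tyb replicates 3 and 5 fell within the WT range (0.17 ± 0.075 SE, adjusted p = 0.33). After each genotype's mean was removed, the log2 levels of Zfp942 and Zfp943 had a correlation of 0.69 over the 10 libraries, and those of Zfp944 and Zfp758 one of 0.33, which is a description of points that share libraries and depth. Zfp944 stood at 0.099 ± 0.095 SE and Zfp758 at 0.18 ± 0.099 SE. These pairs were chosen for their close divergent starts after their values were seen. Zfp668 and Zfp646 on chromosome 7, another divergent pair, whose 5′ ends overlap, stood at -0.10 and -0.042. Their log2 levels had a correlation of 0.20 by the same measure. The median over all pairs of members within a cluster was also 0.20.

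The largest cluster, 20 genes from Zfp712 to Zfp273 on chromosome 13, was divided, with 12 genes above 0 and 8 below. Its extremes were Zfp458 at 0.21 ± 0.14 SE and Zfp953 at -0.20 ± 0.15 SE, and its most abundant gene, Zfp738, stood at -0.079 ± 0.10 SE. The 14 genes from Zfp84 to Zfp146 on chromosome 7 had 9 above 0, from Zfp568, which is known for silencing a placental Igf2 transcript, at -0.21 ± 0.13 SE to Zfp566 at 0.17 ± 0.14 SE, with the abundant Zfp260 at 0.12 ± 0.053 SE. The 12 genes from Zfp871 to Zfp101 on chromosome 17 had 8 above 0, with Zfp871 at -0.057 ± 0.12 SE. Of 5 other tested genes that start between those members, 2 were above 0, with a median of -0.16. The extremes among the 12 members were close copies of each other. Zfp955a stood at 0.21 ± 0.12 SE and Zfp955b at -0.10 ± 0.11 SE, with 100% identity between their promoters and 37.1% and 22.2% of their windows shared with other genes.

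Among 10 genes from Zfp180 to Zfp94, 5 were above 0, between Zfp111 at -0.11 ± 0.083 SE and Zfp93 at 0.19 ± 0.079 SE, with the most abundant, Zfp180, at -0.079 ± 0.043 SE. Of 8 genes from Zfp607b to Zfp850, 4 were above 0, between Zfp607a at -0.22 ± 0.20 SE and Zfp780b at 0.13 ± 0.11 SE, and the most abundant, Zfp60, stood at 0.087 ± 0.065 SE. Both clusters were therefore evenly split. The 8 genes from Zfp553 to Zfp629 leaned the other way, with 2 above 0. So did 13 other tested genes that start between them, with 3 above 0 and a median of -0.068. Zfp771 stood at -0.22 ± 0.16 SE, Zfp768 at -0.21 ± 0.084 SE (adjusted p = 0.285), Zfp629 at 0.0043 ± 0.043 SE and Zfp553 at 0.053 ± 0.068 SE. Without WT replicate 5 Zfp771 stood at -0.057, and it stood at -0.02 with the GC and length trend removed.

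Of 7 genes from Zfp786 to Zfp746 on chromosome 6, 3 were above 0, with Zfp282 lowest at -0.11 ± 0.071 SE, Zfp786 highest at 0.056 ± 0.13 SE and the most abundant, Zfp777, at -0.065 ± 0.064 SE. The 6 genes from Zfp354c to Zfp354a on chromosome 11 ranged from Zfp354b at -0.19 ± 0.15 SE to Zfp354c at 0.068 ± 0.057 SE. In the 6 genes from Zfp787 to Zfp28, Zfp787 (-0.23 ± 0.11 SE) and Zfp444 (-0.10 ± 0.085 SE) were below 0 and the other 4 above it, up to Zfp28 at 0.15 ± 0.065 SE. Of 5 genes from Zfp329 to Zfp446, 1 was above 0, namely Zfp110, which encodes a protein that binds the neurotrophin receptor p75, at 0.075 ± 0.056 SE. The lowest there was Zfp446 at -0.18 ± 0.074 SE (adjusted p = 0.292), and Zfp329 stood at -0.073 ± 0.065 SE.

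The remaining clusters of 4 or 5 genes held small values of both signs. On chromosome 8, Zfp964 stood at -0.069 ± 0.14 SE, Zfp869 at 0.077 ± 0.075 SE and Zfp866 at 0.026 ± 0.053 SE in 1 cluster, and Zfp882 at -0.18 ± 0.12 SE, Zfp709 at 0.058 ± 0.080 SE and Zfp617 at 0.045 ± 0.056 SE in another. On chromosome 9, Zfp560 stood at -0.027 ± 0.092 SE, Zfp266 at 0.029 ± 0.049 SE and Zfp846 at 0.058 ± 0.086 SE. Zfp653 and Zfp810, which share a chromosome 9 cluster of 4, lay on opposite sides, at -0.14 ± 0.062 SE and 0.14 ± 0.057 SE (adjusted p = 0.315 and 0.285). Zfp605 in a chromosome 5 pair stood at 0.17 ± 0.071 SE (adjusted p = 0.288).

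Counted by direction, all members were above 0 in 12 clusters and below 0 in 9, and 27 clusters were mixed. Of the 24 clusters with at least 3 members, 21 were mixed, 2 were wholly above 0 and 1 wholly below. Of the 24 pairs, 10 were both above, 8 both below and 6 mixed. In none of the 48 clusters did the cluster means of the 5 WT and 5 Dp1Tyb libraries fail to overlap.

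**Figure D3:**
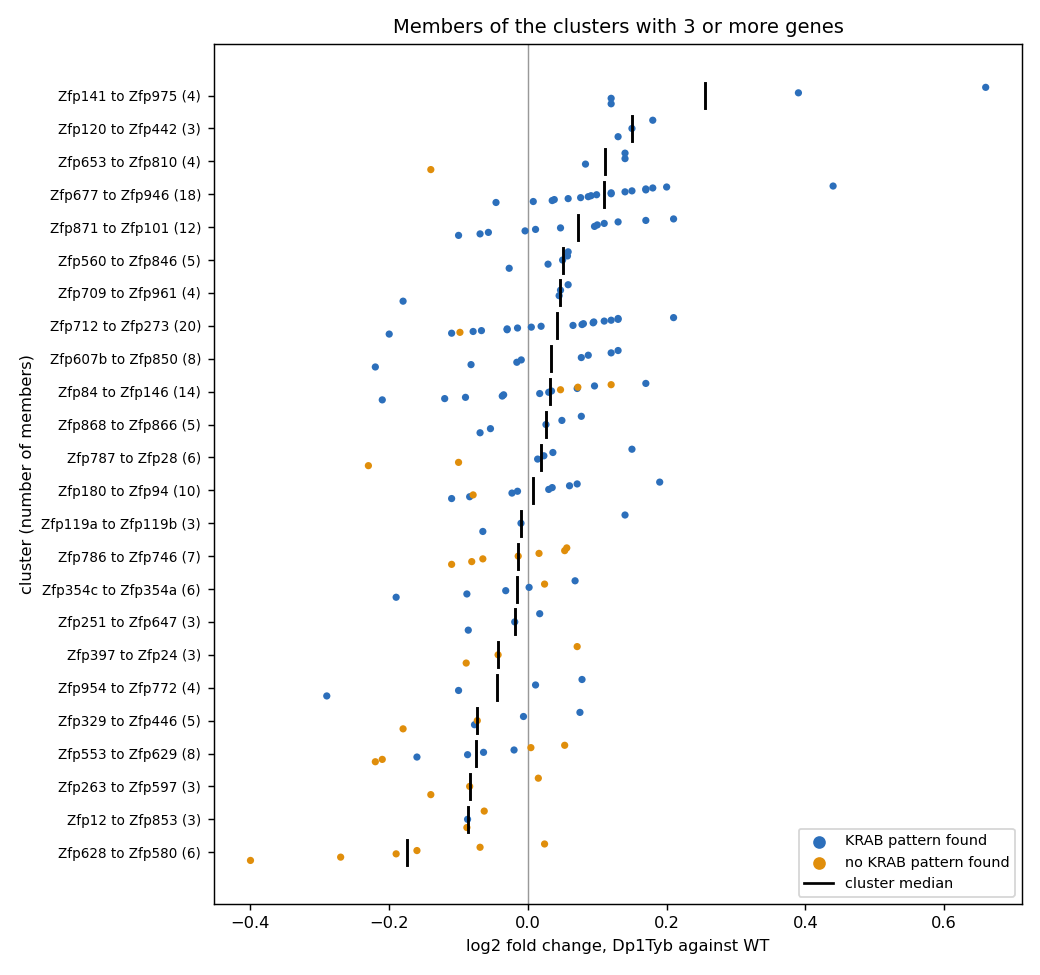
log2 fold change of every member (x axis) in the 24 clusters with at least 3 members (y axis, ordered by median), coloured by whether a KRAB pattern was found, with the cluster median as a black bar. The cluster medians run from -0.18 for Zfp628 to Zfp580 to 0.26 for Zfp141 to Zfp975, and members of most clusters lie on both sides of 0.

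Whether genes of a cluster shifted together was measured over pairs of members. In 763 pairs within a cluster the log2 fold changes had the same sign in 58.7%, against 50.5% of 21603 pairs in different clusters and 54.2% of 45716 neighbouring pairs of other protein-coding genes with starts within 200 kb, outside the duplicated stretch. Pairs within a cluster were all pairs of its chain, which spanned up to 1070 kb. They were therefore not matched in distance to the other neighbours. Without the 18 genes of the chromosome 17 cluster the shares within and between clusters were 51.1% and 50%, a choice made after the values were seen. The median absolute difference of log2 fold change was 0.096 within clusters, 0.11 between clusters and 0.12 among other neighbours. The residual correlation, which is the correlation of log2 levels over the 10 libraries after each genotype's mean is removed, had a median of 0.20 within clusters, 0.096 between clusters and 0.073 among other neighbours. It was 0.20 within clusters and 0.092 between them without the chromosome 17 cluster. These values describe pairs that share genes and libraries, so they carry no p.

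Shared variation was also read cluster by cluster. The 6 genes from Zfp628 to Zfp580 had a median residual correlation of 0.57 and the 6 from Zfp354c to Zfp354a one of 0.49, whose median log2 fold changes were -0.18 and -0.015. With the GC and length trend removed these correlations were 0.24 and 0.47. In other clusters it was near 0 before the removal, at -0.015 in the 10 genes from Zfp180 to Zfp94, -0.034 in the 7 from Zfp786 to Zfp746 and -0.051 in the 6 from Zfp787 to Zfp28. The chromosome 17 cluster had 0.19, the 20 genes from Zfp712 to Zfp273 had 0.24, and the cluster with the highest median log2 fold change, Zfp141 to Zfp975, had 0.088.

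**Figure D4:**
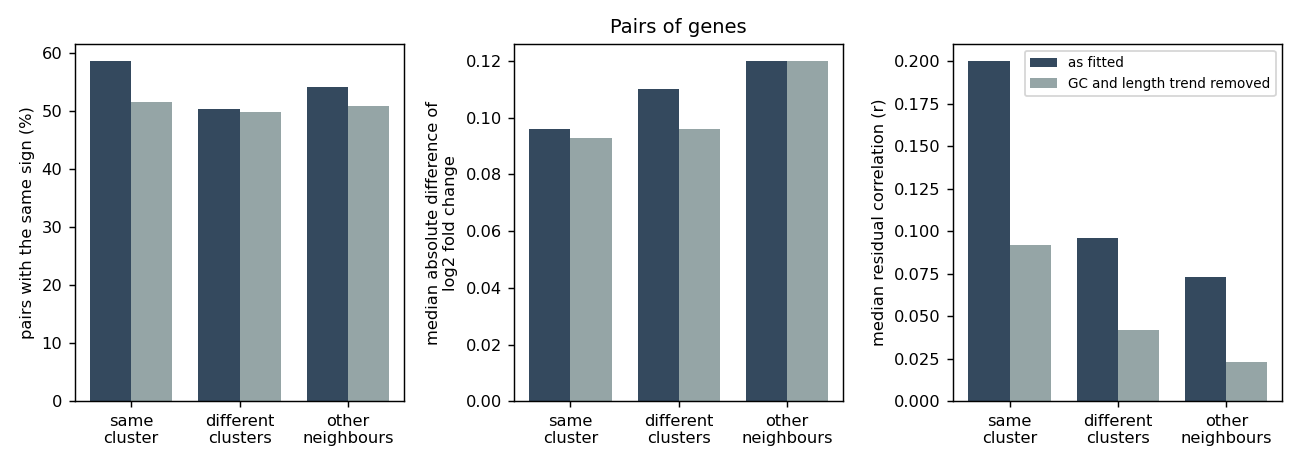
Share of pairs with the same sign (%), median absolute difference of log2 fold change and median residual correlation (3 y axes, from 0) for pairs within a cluster, pairs in different clusters and neighbouring pairs of other protein-coding genes, as fitted (dark) and with the GC and length trend of each library removed (light). Within-cluster pairs share a sign in 58.7% as fitted and in 51.6% after removal.

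GC content moved with the direction of the members. Of 58 members under 40% GC, 45 were above 0, with a median log2 fold change of 0.085, and of 46 members at 50% GC or more 11 were above 0, with a median of -0.073. Across the 212 members the correlation of log2 fold change with GC content was -0.45, across the 143 Zfp genes outside clusters it was -0.44, and across all tested genes it was -0.18. Genes are not independent replicates, so these are given as descriptions. Members with a KRAB pattern had a median log2 fold change of 0.038 (100 of 155 above 0), and members without one -0.063 (21 of 57 above 0). Among Zfp genes outside clusters the medians were 0.052 in 38 with the pattern and -0.03 in 105 without it.

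Libraries themselves differed in their slope on GC content over all tested genes. In log2 units per 10 points of GC the slope was 0.0039, -0.016, 0.017, 0.055 and 0.093 in WT replicates 1 to 5 and -0.01, -0.03, -0.045, -0.12 and 0.05 in Dp1Tyb replicates 1 to 5. Why the slopes differed was not tested. When each library's trend on GC content and length was removed, 99 of 212 members (46.7%, as against 57.1%) were above 0, and the median was -0.0067. Pairs shared a sign in 51.6% within clusters, 49.9% between them and 50.9% among other neighbours. Median residual correlations were then 0.092 within clusters, 0.042 between them and 0.023 among other neighbours, and that of the chromosome 17 cluster was 0.0047. KRAB-pattern members had a median of 0.0024, with 79 of 155 above 0, and the others of -0.021, with 20 of 57 above 0. The 4 genes from Zfp141 to Zfp975 were all still above 0, with a median of 0.21, and the 6 from Zfp628 to Zfp580 had a median of -0.09.

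**Figure D5:**
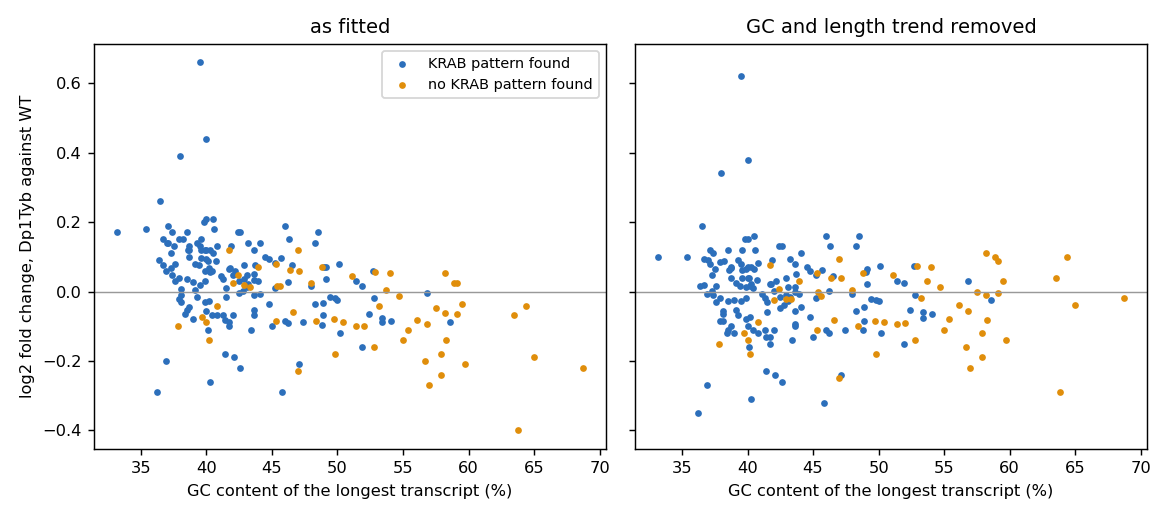
log2 fold change (y axis) against GC content of the longest transcript (%, x axis) for the 212 members, as fitted (left, correlation -0.45) and with each library's trend on GC and length removed (right, correlation -0.15). Points are coloured by whether a KRAB pattern was found.

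The partners through which KRAB zinc-finger proteins silence chromatin were read from a list of 27 genes, all tested. It holds co-repressor and heterochromatin genes and also Zfp57, itself a zinc-finger gene by its symbol, at -0.02 ± 0.10 SE. Of the 27, 1 (3.7%) was called, against 1.11% of all tested genes. The called gene lies in the duplicated stretch, where 68 of 114 tested genes were called. Morc3, a nuclear ATPase that silences endogenous retroviruses, had 29, 26.1, 28.5, 28.5 and 29.3 CPM in WT and 41.8, 42.4, 44.2, 46.3 and 39.5 CPM in Dp1Tyb replicates 1 to 5. The groups were far apart, and Morc3 rose by 0.60 ± 0.052 SE on the log2 scale (adjusted p = 2.12e-05, edgeR, n = 5 per genotype). Trim28, the co-repressor that the KRAB domain binds, had 136 ± 2.98 CPM (SD, n = 5) in WT and 132 ± 5.3 CPM (SD, n = 5) in Dp1Tyb, which differ by -0.046 ± 0.035 SE on the log2 scale (adjusted p = 0.575). Setdb1, the methyltransferase that Trim28 recruits, had 61.4 ± 1.23 and 56.9 ± 3.94 CPM, which differ by -0.11 ± 0.048 SE on the log2 scale (adjusted p = 0.327). Of the 27 genes 12 were above 0, and their median log2 fold change was -0.013.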

How the data were processed

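The authors trimmed reads with Trim Galore, mapped them to GRCm38 with TopHat2 2.0.12, dropped reads with several alignments and used HTSeq to count the rest by Ensembl gene. The deposited counts are whole reads per gene, not normalized. The strand setting is not given in the sources used here, so genes that overlap another gene are uncertain. Normalized values and the authors' own DESeq2 1.6.3 comparison were not used.

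CPM used TMM library sizes. All 17237 genes kept by filterByExpr were tested with edgeR 4.0.16 in R 4.3.3 (quasi-likelihood, 10 libraries, no covariates, Benjamini-Hochberg adjustment, threshold 0.05), and DESeq2 1.42.0 was an alternative. The fits and pair measures were tested on simulated data. Positions came from GENCODE M21. Of the 212 members, 182 matched a RefSeq promoter (GRCm38.p6). No 2 libraries agreed within sampling noise (smallest chi-square per degree of freedom 4.678 over 45 pairs). Shared windows are 75-base stretches of a gene's transcripts found in another gene. Fingers were counted by the spacing of their cysteines and histidines.

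The text names members by unadjusted p (the 10 lowest), by extremes within clusters of at least 4, all of the clusters with the highest and lowest medians, and the members with the highest and lowest levels. Members, lists and rule were chosen with earlier results of these data known. The KRAB and GC splits and the pairs with close divergent starts were added after the values were seen. Intervals cover the spread between these libraries only.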

Additional observations from a re-analysis of the deposited data

Results flagged for a closer look

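In 4 of the 156 groups of 5 libraries looked at, 1 library stood apart from the other 4 by more than Dixon's 95% limit for 5 values, where chance gives about 7.8. Zfp111 stood at 12.1 CPM in Dp1Tyb replicate 5 against 9.69 to 10.3 CPM in the others of its group. Zfp580 was at 14 CPM in WT replicate 5 against 8.77 to 9.93 CPM. Zfp607a was at 2.06 CPM in WT replicate 3 against 1.24 to 1.42 CPM, and Zfp846 at 14.2 CPM in WT replicate 4 against 12.5 to 12.9 CPM.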

How the results depend on the processing

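No member was called with RLE size factors, with no filter on low counts or without the choroid-poor libraries. DESeq2, the fit without WT replicate 3, the GC and length fit and the replicate block each called 1, which was Zfp579 for the block and Zfp772 for the others. The other 9 fits without 1 library called 0. The block moved no other summary by more than its error over left-out libraries. With the block 315 of all tested genes were called, against 191 without it. Correlations of same-numbered libraries ran from -0.0686 to 0.277, and 1 of 5 WT libraries correlated best with its own number. These values do not settle whether same-numbered mice were paired. Removing the GC and length trend moved the members' median to -0.0067, the same-sign share to 51.6%, the residual correlation to 0.092, the median of members without a KRAB pattern to -0.021, that of Zfp871 to Zfp101 to 0.014 and that of Zfp628 to Zfp580 to -0.09. Without the chromosome 17 cluster the same-sign share was 51.1%, and without the choroid-poor libraries the median of Zfp560 to Zfp846 was -0.006. Leaving out 1 library gave 108 to 130 members above 0, medians of 0.0021 to 0.037, same-sign shares of 54.5% to 62.4% and residual correlations of 0.14 to 0.24. The cause of these moves was not tested. Single genes near 0 changed sign: with the GC and length trend removed Zfp266 stood at -0.019, Zfp445 at -0.021, Zfp617 at -0.0058, Zfp628 at 0.04 and Trim28 at 0.019. Leaving out 1 library turned the sign of Zfp229 (-0.12 to 0.039), Zfp445 (-0.015 to 0.036), Zfp524 (-0.019 to 0.064), Zfp560 (-0.081 to 0.015), Zfp628 (-0.15 to 0.027), Zfp629 (-0.011 to 0.017), Zfp820 (-0.061 to 0.20), Zfp846 (-0.015 to 0.10) and Zfp871 (-0.16 to 0.032), with each turned value within its standard error.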

Other observations

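Of the 143 expressed Zfp genes outside clusters, 1 was called, where 1.11% of all tested genes were called. The gene is named here after its values were seen. Zfp36l2 is an RNA-binding protein of the CCCH type that promotes the decay of mRNAs with AU-rich elements, and it is not a C2H2 factor although its symbol meets the same rule. It fell from 24 ± 2.73 CPM (SD, n = 5) in WT to 18.6 ± 1.16 CPM (SD, n = 5) in Dp1Tyb, a difference of -0.37 ± 0.08 SE on the log2 scale (adjusted p = 0.0479, edgeR). The call was close to the threshold: adjusted p was 0.0506 with the GC and length trend removed and 0.144 without the choroid-poor libraries, and leaving out 1 library at a time lost it in 8 of 10 fits (adjusted p from 0.00582 to 0.133, kept without WT replicate 1 and without Dp1Tyb replicate 5).

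Among the members, 37 shared more than 10% of their 75-base windows with other genes and 5 more than 50%. Zfp968 and Zfp965 are neighbouring members on chromosome 2, with 1 other tested gene starting between them, and were singled out after their values were seen. They shared 92.3% and 94.6% of their windows and had the lowest values of any pair, at -0.26 ± 0.11 SE and -0.29 ± 0.14 SE. Reads that align to several places were dropped before counting, and Zfp968 had 86 to 159 counts per library and Zfp965 96 to 153. Which bases these counts came from was not tested. Zfp968 had 4.94, 4.83, 4.66, 4.54 and 4.2 CPM in WT and 3.42, 3.95, 4.48, 3.33 and 4.33 CPM in Dp1Tyb replicates 1 to 5, with Dp1Tyb replicates 1 and 4, the choroid-poor libraries, the lowest. WT replicate 2, the WT library with the lowest summed choroid plexus markers (441 CPM), had 4.83 CPM. The part of choroid plexus content was not tested.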
